A study of Homo sapiens with 30 samples.

Results

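Small Cajal body RNAs (scaRNAs) are guide RNAs that direct the chemical modification of the spliceosomal small nuclear RNAs. Those with box C/D motifs guide methylation of the ribose and those with box H/ACA motifs guide the conversion of uridine to pseudouridine, and some carry both kinds of motif. They gather in Cajal bodies, small compartments in the nucleoplasm, and most are cut from introns of other genes. The 10 members described here are SCARNA2, SCARNA5, SCARNA6, SCARNA7, SCARNA9, SCARNA10, SCARNA12, SCARNA13, SCARNA17 and SCARNA23. They were taken by symbol out of 27630 gene rows, with earlier results of these data known. All 10 passed the filter on low counts that left 16504 rows for testing. The rows hold 18 further SCARNA symbols, of which 13 passed that filter. Of the 10 members, 4 are box C/D guides (SCARNA2, SCARNA7, SCARNA9 and SCARNA17) and 4 carry both motifs (SCARNA5, SCARNA6, SCARNA10 and SCARNA12). The other 2 are box H/ACA guides, of which SCARNA13 is a tandem one and SCARNA23 a single one. Lengths were 130 bases for SCARNA23 and 266 to 421 bases for the other 9.

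RNA was counted in 8 libraries of HEK293FT, an established line of human embryonic kidney cells, with 2 libraries in each of 4 groups. These were the nuclear fraction, the cytosolic fraction, RNA recovered with a lamina-targeted APEX2 peroxidase from native material (native lamina), and the same from material fixed with PFA, paraformaldehyde (PFA lamina). Cells of all 4 groups, both fractions included, were asynchronous and had been transfected with APEX2 joined to lamin B1, a protein of the nuclear lamina. The labels describe no untransfected or unlabelled library and no promoter for the construct, and nothing in them says that the replicates were separate cultures, so p-values measure the spread between these libraries, which may be technical.

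Total counts were 2321291 in PFA lamina replicate 2 and 5802728 to 8557777 in the other 7 libraries. As a check of the fractions, the nuclear RNA MALAT1 was at 10962 and 16522 normalised CPM (CPM being counts scaled to library size, here after TMM scaling) in the nuclear and at 795 and 974 in the cytosolic libraries, while GAPDH mRNA was at 257 and 729 in the nuclear and at 1972 and 4960 in the cytosolic libraries. MALAT1 was at 5456 and 12246 in the native lamina libraries, and at 595 and 3079 in PFA lamina replicates 1 and 2. PFA lamina replicate 1 thus lay below both cytosolic libraries for a nuclear RNA, and the calls that rest on it are given with and without it. LMNB1, the gene of the lamin joined to APEX2, was at 3231 and 3507 normalised CPM in the nuclear, 4197 and 6382 in the cytosolic, 76513 and 26168 in the native lamina and 96237 and 81004 in the PFA lamina libraries. Its reads can come from the cells' own gene or from the construct, which the counts do not tell apart.

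The 10 RNAs together held 0.161% (95% Wilson interval 0.158 to 0.164) and 0.186% (0.183 to 0.190) of all counts in the nuclear libraries. In the cytosolic libraries they held 0.0584% (0.0567 to 0.0602) and 0.0338% (0.0324 to 0.0354). The native lamina libraries had 0.121% (0.118 to 0.123) and 0.116% (0.114 to 0.119). The PFA lamina libraries lay apart, at 0.0375% (0.0360 to 0.0392) in replicate 1 and 0.136% (0.131 to 0.141) in replicate 2. The order was therefore nuclear, then native lamina, then cytosolic, with no overlap between these 3 groups, and the PFA lamina ran from within the cytosolic range in replicate 1 to above both native lamina libraries in replicate 2. The intervals cover counting error only.

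**Figure D1:**
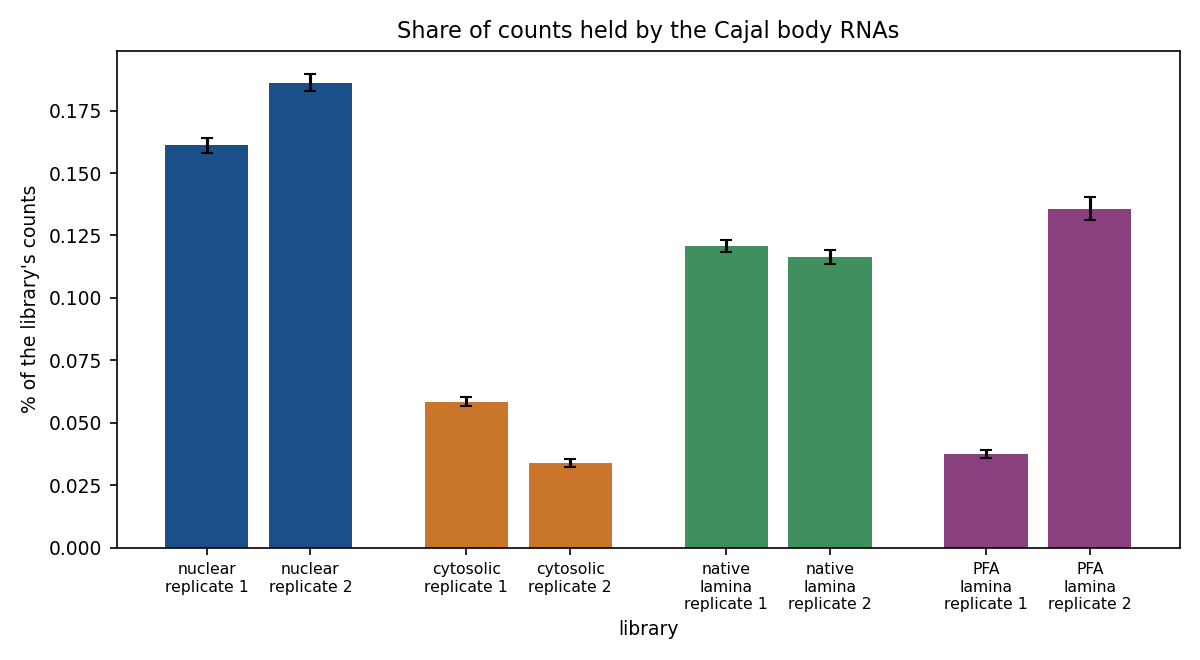
Bars give the percentage of each library's counts that fell on the 10 Cajal body RNAs, and error bars are 95% Wilson intervals, which cover counting error only. The nuclear libraries were highest at 0.161% and 0.186%, and the PFA lamina replicates lay at 0.0375% and 0.136%.

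Levels of the 10 RNAs spanned a wide range when expressed per kilobase of RNA length. In the nuclear fraction SCARNA10 was highest, at 1762 ± 168 normalised CPM per kb (SD, n = 2), and SCARNA2 followed at 1066 ± 288. SCARNA12 at 685 ± 226 and SCARNA5 at 678 ± 108 did not differ beyond their spread. Next came SCARNA6 at 427 ± 94.1 and SCARNA9 at 408 ± 42.9, and then SCARNA7 at 292 ± 63.8 and SCARNA13 at 282 ± 88.6, each pair again within its spread. SCARNA17 at 125 ± 17.2 and SCARNA23 at 29.7 ± 21.6 were the lowest, and these 2 held the last places in all 8 libraries. The order at the top changed with the material: SCARNA10 was first per kb in all 4 fraction libraries and in native lamina replicate 2, while SCARNA2 was first in native lamina replicate 1 and in both PFA lamina libraries. The count of SCARNA2 over that of SCARNA10 was 0.668 and 0.859 in the nuclear libraries and 0.637 and 1.05 in the cytosolic libraries. The ratio was 1.56 and 1.09 in the native lamina libraries and 2.18 in both PFA lamina libraries, above all 4 fraction libraries in each case.

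**Figure D2:**
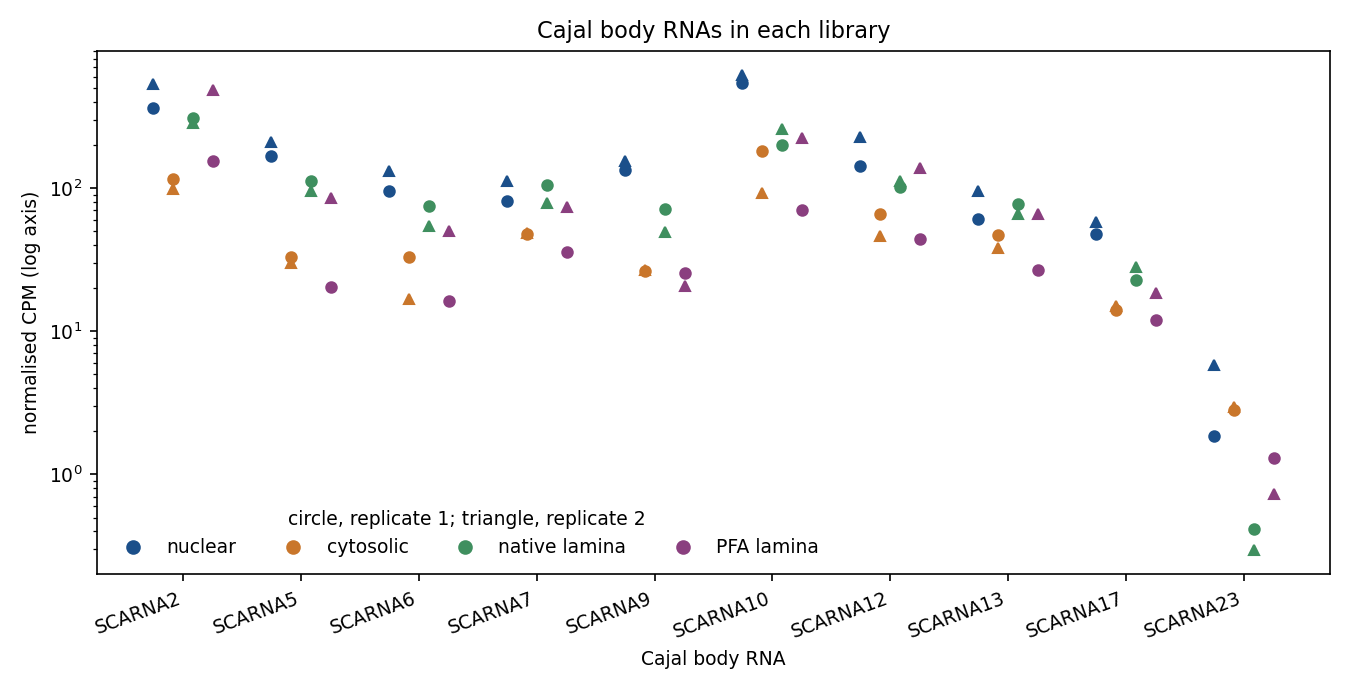
Points give normalised CPM (log axis) of each Cajal body RNA in each of the 8 libraries, with circles for replicate 1 and triangles for replicate 2. Both nuclear libraries lie above both cytosolic ones for 9 of the 10 RNAs, and the PFA lamina replicates lie far apart for SCARNA5, at 20.5 and 84.6.

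The fractions were compared first, to place the guides between nucleus and cytosol. Of the 10 RNAs, 8 were higher in the nuclear fraction and 0 lower (quasi-likelihood test of edgeR, called at a p under 0.05 after Benjamini-Hochberg adjustment over all rows tested; all adjusted p values below are from this test unless another is named). Of all rows tested, 26.1% were called higher in this comparison and 21.2% lower. The median log2 fold change of the 10 was 1.96, beside 0.13 for all rows. Of the 13 further SCARNA rows tested, 3 (23.1%) were called higher and 1 (7.69%) lower, with a median of 0.98. The 8 comprised the 4 box C/D guides and the 4 guides with both motifs, and the 2 box H/ACA guides were not called in this fit. One of these 2, SCARNA13, was called in some of the refits described below.

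Among the guides with both motifs, SCARNA10, which guides modification of the U5 small nuclear RNA, had 542 and 621 normalised CPM in the nuclear libraries and 183 and 92.8 in the cytosolic ones. The nuclear values were well apart from the cytosolic ones, and the cytosolic replicates differed 1.97-fold. Its log2 fold change was 2.08 (SE 0.47, adjusted p 0.00392), which lost the call without cytosolic replicate 2. SCARNA5 and SCARNA6, which are also assigned to U5 and lie in introns of the same gene, had 167 and 209.8 against 32.9 and 30.0 normalised CPM, and 95.9 and 131 against 33.2 and 16.9, in the nuclear against the cytosolic libraries. Neither overlapped between the fractions. They were higher in the nuclear fraction by 2.58 (SE 0.48, adjusted p 0.00153) and 2.17 (SE 0.46, adjusted p 0.00281) on the log2 scale. SCARNA12 had 142 and 228 normalised CPM in the nuclear and 65.9 and 46.1 in the cytosolic libraries, without overlap. Its log2 fold change was 1.72 (SE 0.44, adjusted p 0.00715), and it was not called without nuclear replicate 2 or without cytosolic replicate 2.

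Among the box C/D guides, SCARNA9, a guide for the U2 small nuclear RNA, had 133 and 155 normalised CPM in the nuclear and 26.2 and 26.6 in the cytosolic libraries. The cytosolic replicates were nearly equal and far below both nuclear ones. SCARNA9 had a log2 fold change of 2.44 (SE 0.30, adjusted p 5.04e-04), the smallest adjusted p of the 10. A second row, SCARNA9L on chromosome X, bears the name of a SCARNA9-like copy. Reads that match both could have been split between them by the authors' counting, so both values are uncertain. SCARNA2, another U2 guide, had 362 and 533 against 116 and 97.9, and a log2 fold change of 2.06 (SE 0.45, adjusted p 0.00303). SCARNA17, a guide for the U4 and U12 small nuclear RNAs, had 47.5 and 57.7 against 14.2 and 15.0, and 1.85 (SE 0.31, adjusted p 0.00104). SCARNA7, which is assigned to the U1 small nuclear RNA, had the smallest change of the 8, with 81.6 and 111 in the nuclear and 47.9 and 48.8 in the cytosolic libraries. The groups did not overlap for any of these 4 guides, and 9 of the 10 RNAs lay above both cytosolic libraries in both nuclear ones, where 42.5% of all rows did. For SCARNA7 the log2 fold change was 1.0 (SE 0.34, adjusted p 0.0289), and the call was lost whichever of the 4 libraries was left out.

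The box H/ACA guides behaved less uniformly. SCARNA13, the tandem guide, had 60.4 and 94.8 normalised CPM in the nuclear and 46.7 and 38.1 in the cytosolic libraries. The fractions did not overlap, but the log2 fold change of 0.87 (SE 0.38, adjusted p 0.0750) was not called. It was called with upper-quartile factors, without a filter and with only the 4 libraries compared. In these refits 31.8%, 20.6% and 30.6% of all rows were higher. SCARNA23 was scarce, with 12 and 34 counts in the nuclear and 21 and 14 in the cytosolic libraries, or 1.87 and 5.84 against 2.81 and 2.96 normalised CPM. One nuclear library lay below and the other above both cytosolic ones, and the log2 fold change was 0.41 (SE 0.70, adjusted p 0.652). The ratio of nuclear to cytosolic abundance from its summed counts was 1.31, with a 95% counting interval of 0.826 to 2.1. The difference between the 2 H/ACA guides and the other 8 was not tested.

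**Figure D3:**
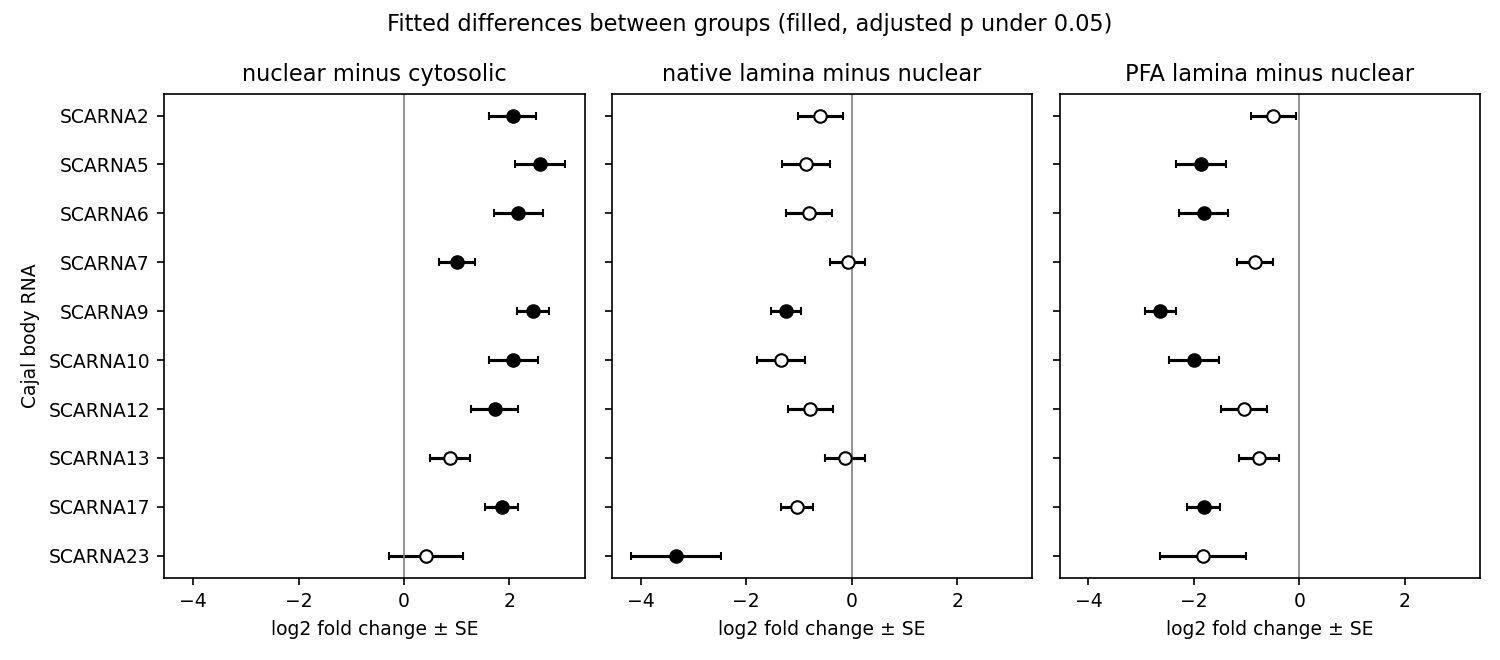
Points give the fitted log2 fold change of each Cajal body RNA with its standard error in 3 comparisons on one common axis, filled where the adjusted p was under 0.05. Between the fractions 8 RNAs were called higher in the nuclear one, and 2 were called lower in native lamina RNA than in nuclear RNA and 5 were called lower in PFA lamina RNA.

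The native lamina was compared with the nuclear fraction to ask which nuclear RNAs were recovered near the lamina more or less than their nuclear level. Of the 10 RNAs, 2 were lower at the native lamina and 0 higher, where 3.44% of all rows tested were called lower and 3.87% higher. All 10 had a negative log2 fold change, with a median of -0.84 beside -0.07 for all rows. With total counts in place of TMM scaling, which moved the median of all rows to 0.22, the median of the 10 was -0.54 and SCARNA7 and SCARNA13 turned positive.

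SCARNA9 was at 71.9 and 49.7 normalised CPM at the native lamina, below the 133 and 155 of the nuclear fraction in both libraries. Its log2 fold change was -1.24 (SE 0.28, adjusted p 0.0260). SCARNA23 had 4 and 2 counts at the native lamina, or 0.416 and 0.295 normalised CPM, against 12 and 34 counts in the nuclear fraction. Native replicate 2 was under the floor of 3 counts. The ratio of native to nuclear abundance from the summed counts, 6 against 46, was 0.0974 with a 95% counting interval of 0.0340 to 0.229, and the fitted log2 fold change was -3.33 (SE 0.85, adjusted p 0.0364). SCARNA10 fell short of the threshold, with 199 and 259.8 normalised CPM and a log2 fold change of -1.34 (SE 0.46, adjusted p 0.0833). SCARNA17 was at 23.0 and 28.1 normalised CPM, with -1.04 (SE 0.30, adjusted p 0.0515). Both lay below the nuclear libraries without overlap, as did 8 of the 10 RNAs, where 35.1% of all rows did. The remaining pair, SCARNA7 at 104 and 79.0 and SCARNA13 at 76.8 and 65.7, overlapped the nuclear values. Leaving out any 1 of the 4 libraries took the number called to 0, and without nuclear replicate 1 only 1 row was called higher and 9 lower among all rows.

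Against the cytosolic fraction, 3 of the 10 were higher at the native lamina and 1 was lower, where 6.99% of all rows were called higher and 6.77% lower. SCARNA5 was at 111 and 95.5 normalised CPM at the native lamina, against 32.9 and 30.0 in the cytosolic fraction, and had a log2 fold change of 1.71 (SE 0.47, adjusted p 0.0304). SCARNA2 was at 310.1 and 283 at the native lamina and had 1.47 (SE 0.44, adjusted p 0.0417). For SCARNA9 the value was 1.20 (SE 0.29, adjusted p 0.0181). The native values of all 3 lay above both cytosolic ones. SCARNA23 was the exception among the 10, since it was lower at the native lamina than in either fraction, with -2.92 (SE 0.86, adjusted p 0.0391) against the cytosol. From 6 against 35 counts, its ratio of native to cytosolic abundance was 0.128, with a 95% counting interval of 0.0439 to 0.306. In all, 9 RNAs lay above both cytosolic libraries at the native lamina, where 35.8% of all rows did. Of the 9, SCARNA6 was at 74.6 and 54.7 and SCARNA12 at 102 and 113 normalised CPM, and neither was called, with adjusted p 0.0613 and 0.158. Without 1 library the number called higher was 0 or 1, and the number called lower was 0.

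The PFA lamina was compared with the nuclear fraction in the same way. Of the 10 RNAs, 5 were lower and 0 higher, where 7.81% of all rows were called lower and 9.63% higher, and all 10 had a negative log2 fold change with a median of -1.81 beside -0.04 for all rows. The 5 were SCARNA5, SCARNA6, SCARNA9, SCARNA10 and SCARNA17. The replicates of this group did not behave alike, and the number called depended on which was used: without PFA lamina replicate 1 it was 2 (SCARNA9 and SCARNA17), where 1.48% of all rows were lower, and without PFA lamina replicate 2 it was 9, where 18.8% were. Without nuclear replicate 1 it was 1 (SCARNA9), where 0.0708% of all rows were lower, and without nuclear replicate 2 it was 2, where 0.852% were.

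SCARNA9 and SCARNA17 were low in both PFA lamina libraries. SCARNA9 was at 25.5 and 20.6 normalised CPM, below both nuclear libraries. These values were also below the cytosolic 26.2 and 26.6, in replicate 1 only slightly, and that comparison was not called. Against the nuclear fraction the log2 fold change of SCARNA9 was -2.63 (SE 0.30, adjusted p 0.00129). Leaving out 1 library at a time gave -2.79 to -2.48. SCARNA17 was at 12.0 and 18.4 normalised CPM, with -1.81 (SE 0.32, adjusted p 0.00746). Its PFA lamina values lay on either side of the cytosolic values of 14.2 and 15.0.

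For the other RNAs of 250 bases or more, PFA lamina replicate 1 was low and replicate 2 was 2.05 to 4.13 times as high. SCARNA5 was at 20.5 and 84.6 normalised CPM in replicates 1 and 2, a 4.13-fold gap, and had a log2 fold change of -1.87 against the nuclear fraction (SE 0.47, adjusted p 0.0215). Without replicate 1 this was -1.14, which was not called. SCARNA10 was at 70.6 and 223, with -2.0 (SE 0.47, adjusted p 0.0174), and SCARNA6 at 16.3 and 50.0, with -1.81 (SE 0.46, adjusted p 0.0222). Without replicate 1 these were -1.37 and -1.17, and neither was called. SCARNA2 was at 154 in replicate 1, below both nuclear libraries, and at 486 in replicate 2, between them. It had -0.49 (SE 0.43, adjusted p 0.441), and 0.13 without replicate 1. SCARNA12 at 44.2 and 137, SCARNA7 at 35.7 and 73.2 and SCARNA13 at 26.6 and 66.2 were not called, with adjusted p 0.109, 0.103 and 0.176.

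Both PFA lamina libraries lay below both nuclear ones for 8 of the 10 RNAs, where 32.2% of all rows did. PFA lamina replicate 1 lay below both cytosolic libraries for 9 of the 10 RNAs, SCARNA2 being the exception. Replicate 2 lay above both cytosolic libraries for 8 of the 10 and below both for SCARNA9 and SCARNA23. The shares of all rows in these positions were not computed. The median gap between the PFA lamina replicates was 2.78-fold for the 10 RNAs and 1.45-fold for all rows tested, while in the other 3 groups the median gap of the 10 was 1.14-fold to 1.37-fold. Values for another nuclear RNA moved alike, since NEAT1 was at 106 and 745 normalised CPM in PFA lamina replicates 1 and 2, against 156 and 301.3 in the cytosolic and 1858 and 5094 in the nuclear libraries. Of the 9 members of 250 bases or more, 8 were higher in replicate 2, with summed levels of 405 and 1159 normalised CPM in replicates 1 and 2. Of all tested rows with counts in both replicates, 49.5% were higher in replicate 2. Shorter RNAs went in both directions. Of the 13 tested SCARNA rows under 200 bases, 10 were higher in replicate 1, with summed levels of 381 and 78.7, or 98.5 and 43.4 without SCARNA16. Of 107 box H/ACA small nucleolar RNA rows, with a median length of 134 bases, 76 were higher in replicate 1 (summed levels 1101 and 512). Of 128 box C/D small nucleolar RNA rows, with a median length of 76 bases, 102 were higher in replicate 2 and 24 in replicate 1 (summed levels 766 and 755). The part of nuclear RNA content in the results for the PFA lamina was not tested.

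Between the PFA lamina and the cytosolic fraction 0 of the 10 RNAs were called, where 0.527% of all rows were called higher and 0.145% lower. At an unadjusted p under 0.05, 1 RNA passed, SCARNA2, where 3556 of the 16504 rows did. SCARNA2 lay above both cytosolic libraries with a log2 fold change of 1.57 (SE 0.44, adjusted p 0.0861). It was called by the Wald test of DESeq2, where 3.34% of all rows were called higher. The other 9 had log2 fold changes of -1.41 (SCARNA23) to 0.71 (SCARNA5). Without PFA lamina replicate 1, 3 RNAs were called higher, SCARNA2, SCARNA5 and SCARNA12, where 9.74% of all rows were.

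Between the 2 lamina preparations 0 of the 10 were called by edgeR, where 0% of all rows were called in either direction, 1821 rows and 5 of the 10 had an unadjusted p under 0.05, and the smallest adjusted p over all rows was 0.257. That value was shared by 25 rows, SCARNA9 among them, with 25.5 and 20.6 normalised CPM at the PFA lamina and 71.9 and 49.7 at the native lamina. Its log2 fold change was -1.39 (SE 0.29), lower in both PFA libraries. It was called by the Wald test of DESeq2, which called 1 of the 10, and 1.1% of all rows lower. Leaving out 1 library at a time gave -1.64 to -1.10. Without PFA lamina replicate 2, 5 RNAs were called lower, SCARNA5, SCARNA6, SCARNA7, SCARNA10 and SCARNA13, where 2.51% of all rows were. Those 5 calls rest on PFA lamina replicate 1. Without it, the log2 fold changes of SCARNA5, SCARNA6, SCARNA7, SCARNA10 and SCARNA13 were -0.31, -0.39, -0.34, -0.061 and -0.12. These comparisons share the PFA lamina libraries with those above, so they are not separate evidence.

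Host genes were examined next, since an intronic guide and its host come from one primary transcript. Of the 10 RNAs, 9 lie within the span of another gene on the same strand, and SCARNA2 (hg19, chromosome 1, 109642815 to 109643234) does not. Of the 9, 7 lie in introns and share no exonic base with the host. SCARNA5 (chromosome 2, 234184372 to 234184649) and SCARNA6 (234197322 to 234197587) both lie in ATG16L1, an autophagy gene. SCARNA7 (chromosome 3, 160232695 to 160233024) lies in KPNA4, an importin gene, and SCARNA9 (chromosome 11, 93454680 to 93455032) in CEP295, a centriole gene. SCARNA10 (chromosome 12, 6619388 to 6619717) lies in NCAPD2, which encodes a condensin subunit, and SCARNA12 (chromosome 12, 7076500 to 7076769) in PHB2, which encodes a prohibitin of mitochondria. SCARNA23 (chromosome X, 24762558 to 24762687) lies in POLA1, which encodes the catalytic subunit of DNA polymerase alpha.

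Guide and host were both called, in opposite directions, at 2 of these loci. NCAPD2 was at 212 and 179.5 normalised CPM in the nuclear and 545 and 480.4 in the cytosolic libraries, with a log2 fold change of -1.39 (SE 0.28, adjusted p 0.00236), while its intronic SCARNA10 was higher in the nuclear fraction. Per kb of exon, SCARNA10 was 37.3 and 50.3 times as abundant as NCAPD2 in the nuclear libraries, 4.88 and 2.81 times in the cytosolic ones, 8.08 and 11.8 times at the native lamina, and 3.51 and 11.7 times at the PFA lamina. PHB2 was at 85.0 and 123 in the nuclear and 258 and 270.4 in the cytosolic libraries, with -1.35 (SE 0.34, adjusted p 0.00636), and SCARNA12 again went the other way. The ratio of SCARNA12 to PHB2 per kb was 8.92 and 9.91 in the nuclear, 1.36 and 0.911 in the cytosolic, 2.42 and 4.23 in the native lamina and 0.802 and 3.86 in the PFA lamina libraries. For both guides the nuclear ratios were the highest of the 8 libraries. The same held for SCARNA5 and SCARNA6 over ATG16L1 and for SCARNA9 over CEP295, and not for the intronic SCARNA7 and SCARNA23. The ratio of SCARNA5 was 53.5 and 64.5 in the nuclear libraries and at most 32.1 elsewhere. That of SCARNA6 was 32.1 and 42.2, and at most 20.9 elsewhere.

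At the CEP295 locus guide and host were both higher in the nuclear fraction. CEP295 was at 160.1 and 137 normalised CPM in the nuclear and 37.8 and 45.7 in the cytosolic libraries (log2 fold change 1.83, adjusted p 7.09e-04). The ratio of SCARNA9 to CEP295 per kb was 19.0 and 25.8 in the nuclear, 15.8 and 13.3 in the cytosolic, 15.1 and 10.2 in the native lamina and 8.39 and 6.38 in the PFA lamina libraries. SCARNA9 was thus lowest against its host at the PFA lamina, in both replicates. KPNA4, the host of SCARNA7, was at 78.9 and 68.6 normalised CPM in the nuclear and 116 and 114 in the cytosolic libraries, below them without overlap, and its log2 fold change of -0.64 was not called (adjusted p 0.0581). POLA1, the host of SCARNA23, was at 170.3 and 208 in the nuclear and 99.7 and 105 in the cytosolic libraries and was called higher in the nuclear fraction, by 0.89 (SE 0.27, adjusted p 0.0172). The ratio of SCARNA23 to POLA1 per kb was 0.470 and 1.20 in the nuclear and 1.21 in both cytosolic libraries. It was 0.125 and 0.103 in the native lamina and 0.448 and 0.219 in the PFA lamina libraries. ATG16L1 was not called (adjusted p 0.317). The counts cannot tell reads of an intronic guide from reads of unspliced host RNA over the same bases.

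**Figure D4:**
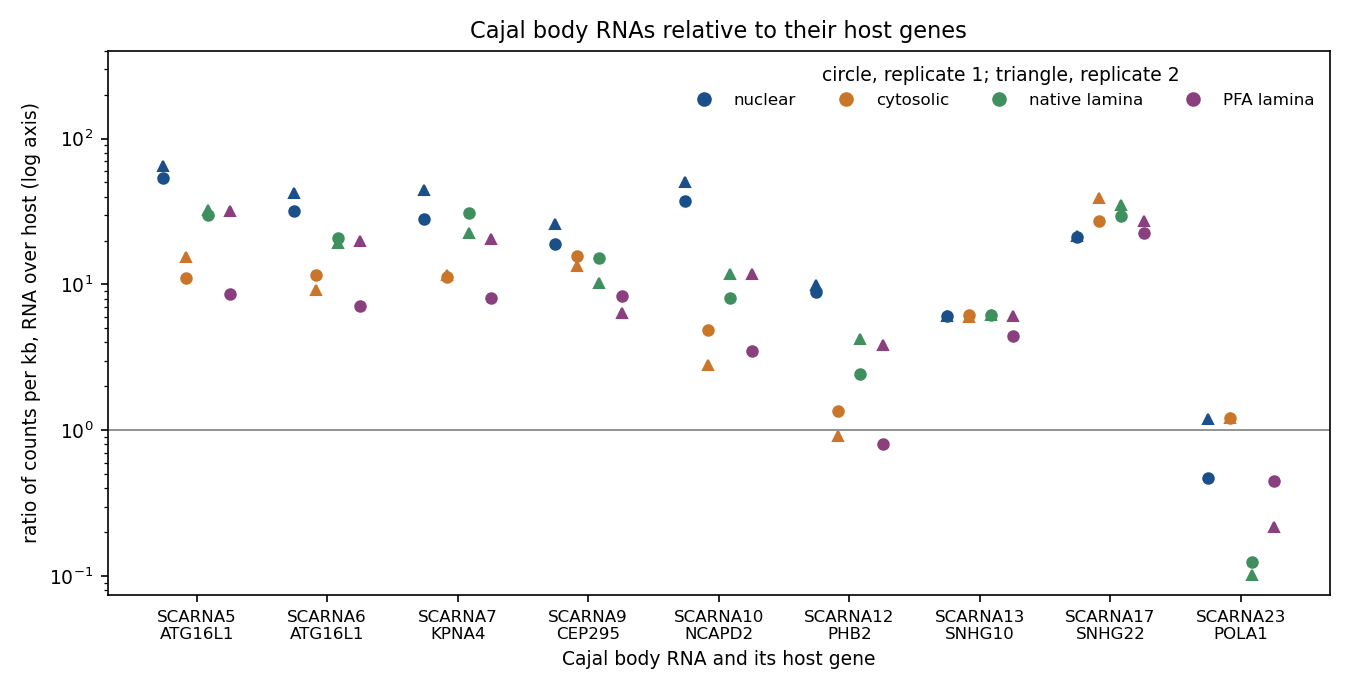
Points give the ratio of counts per kb of a Cajal body RNA to those of its host gene (log axis) in each library, with circles for replicate 1 and triangles for replicate 2. The nuclear ratios of SCARNA10 to NCAPD2, 37.3 and 50.3, stand above those of the other 6 libraries, and the ratio of SCARNA13 to SNHG10 is nearly flat because the 2 rows share reads.

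The other 2 hosts, SNHG10 and SNHG22, are non-coding host genes whose exons overlap the guide. SCARNA13 (chromosome 14, 95999692 to 95999966) lies wholly in an exon of SNHG10, so all of its 275 bases belong to both rows, and the authors' setting counted a read for each gene it overlapped. SCARNA13 counts equalled 84.1% to 86.7% of SNHG10 counts in 7 libraries and 62.6% in PFA lamina replicate 1. The SNHG10 value is therefore mostly that of SCARNA13, and SNHG10 was called higher in the nuclear fraction (log2 fold change 0.88, adjusted p 0.0443) where SCARNA13, at 0.87, was not.

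SCARNA17 (chromosome 18, 47340393 to 47340813) starts at the same base as SNHG22 in the deposited annotation and shares 40 exonic bases with it. SNHG22 was at 8.56 and 10.3 normalised CPM in the nuclear and 2.01 and 1.48 in the cytosolic libraries (log2 fold change 2.40, adjusted p 0.00392), so both rows were higher in the nuclear fraction. SNHG22 had only 55 and 60 counts in the nuclear and 15 and 7 in the cytosolic libraries. A read over the shared bases counted for both rows, so the 2 calls may share reads and are not separate evidence. The RefSeq promoter window of SNHG22 is shown because its start is also the start of the guide in RefSeq. It was matched by symbol, and 0 of the 10 guides have an entry of their own in that table. The window, in build GRCh38.p14 on the plus strand, lies at chr18:49813773-49814072. It holds 250 bases before the start in lower case and the first 50 bases from the start in capitals. The capitals are the first bases of SCARNA17. Since only 40 exonic bases are shared in the deposited annotation, the 50 capitals run past those that SNHG22 shares with SCARNA17.
SNHG22 and SCARNA17 start: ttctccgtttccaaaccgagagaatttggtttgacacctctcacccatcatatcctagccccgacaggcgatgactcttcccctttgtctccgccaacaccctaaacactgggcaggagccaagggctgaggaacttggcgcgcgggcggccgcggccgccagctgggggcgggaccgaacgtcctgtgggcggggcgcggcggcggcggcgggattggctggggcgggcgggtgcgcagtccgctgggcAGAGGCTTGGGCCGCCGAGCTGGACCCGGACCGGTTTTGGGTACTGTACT
The letters GGGCGG, or CCGCCC on the other strand, occur 5 times in the window and CCAAT or ATTGG 1 time. Of 35116 promoter windows of the same length, 45.0% hold the first motif and 34.6% the other. The GC content was 67.3%, beside a median of 58.7% for all windows.

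Genes for proteins of the Cajal body and of small nuclear RNP assembly, and for proteins that bind guide RNAs, were counted as the rest of the pathway. These values concern mRNA, not the proteins. Of 19 genes of the first list, 1 was higher in the nuclear fraction and 5 were lower, with a median log2 fold change of -0.61 beside 0.13 for all rows. These are shares of 5.26% and 26.3%, beside 26.1% and 21.2% of all rows, so the share of lower calls was near that of all rows. The one higher was TGS1, the enzyme that hypermethylates the cap of small nuclear RNAs, with 0.87 (adjusted p 0.0198). Those lower included STRAP, an SMN-associated protein, with -1.98, GEMIN6 with -1.68 and GEMIN5 with -1.22, both parts of the SMN complex. COIL, which encodes the marker protein coilin, was not called, with -0.77 (adjusted p 0.0832), and SMN1 and SMN2 are near-identical copies whose counts cannot be separated. At the PFA lamina against the nuclear fraction the same list had 1 higher (STRAP, 1.31) and 1 lower (TGS1, -0.96), each 5.26% of the list where 9.63% and 7.81% of all rows were called, and 0 of either without PFA lamina replicate 1. Of native lamina RNA against nuclear RNA, 0 of 19 were called by edgeR, where 3.87% of all rows were higher and 3.44% lower.

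Of 18 genes for the proteins of box C/D and box H/ACA particles and their assembly factors, 2 were higher in the nuclear fraction and 10 lower, shares of 11.1% and 55.6% beside 26.1% and 21.2% of all rows, with a median log2 fold change of -0.83. The mRNA of FBL, the methyltransferase fibrillarin, had -2.35 (adjusted p 8.01e-04), that of SNU13, the protein that first binds box C/D RNA, -2.20, and that of NOP10, a box H/ACA core protein, -2.07. RUVBL2, an assembly ATPase, had -1.58. The 2 that were higher were NOP58, a box C/D core protein, with 1.09 and RPAP3, a chaperone cofactor, with 1.29. Against the nuclear fraction, 6 of the 18 (33.3%, beside 9.63% of all rows) were higher at the PFA lamina, and 2 (11.1%, beside 3.87%), NOLC1 and RUVBL2, at the native lamina. Without PFA lamina replicate 1, 0 of the 18 were higher at the PFA lamina and 1 was lower, and the median log2 fold change was 0.20 in place of 0.58.

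Small nucleolar RNAs, the relatives of the guides that act on ribosomal RNA, were set beside them. Of 342 box C/D rows 128 were tested, and 91 of these (71.1%, beside 26.1% of all rows) were higher in the nuclear fraction and 2 lower (1.56%, beside 21.2%), with a median log2 fold change of 2.60. Of 181 box H/ACA rows 107 were tested, with 60 higher (56.1%), 2 lower (1.87%) and a median of 1.69. Against the nuclear fraction the box C/D rows had medians of -1.10 (native lamina) and -1.90 (PFA lamina), and the box H/ACA rows -1.22 and -1.48. At the PFA lamina 37 box C/D rows (28.9%) and 28 box H/ACA rows (26.2%) were lower, beside 7.81% of all rows. Without PFA lamina replicate 1 these were 9 and 22 rows, beside 1.48% of all rows, with medians of -1.18 and -1.99. The 10 Cajal body RNAs, with -0.84 and -1.81, had medians of the same sign in each case, and the differences between these lists were not tested. Of 8 rows of spliceosomal small nuclear RNAs, the class that the guides act on, 5 were tested: RNU6-2, RNU11, RNU4ATAC, RNU6ATAC and RNU12. Of the targets named above for single guides, only U12 is among them, and no U1, U2, U4 or U5 row was tested. Between the fractions 1 of the 5 was called, RNU6ATAC, which was lower in the nuclear one with a log2 fold change of -2.33 (adjusted p 0.0468). A share of 1 in 5 is near the 21.2% of all rows that were lower.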

How the data were processed

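The deposited values are whole-number read counts per gene symbol, made by the authors with featureCounts of Subread 1.5.2 on hg19 with RefFlat gene models, as stated per the file headers, with strand ignored and a read counted for every gene it overlapped. The submitters' processing notes also name TopHat2 2.1.1 and Bowtie2 2.3.2, without settings. How reads matching several places were treated is not given in the sources used here. One header, that of cytosolic replicate 1, carries the name of another library as its output but its own as input, and was used as labelled. Counts were fitted in 1 model of 8 libraries with edgeR 4.0.16 (TMM, default filter by group, quasi-likelihood test, 6 contrasts, adjusted p threshold 0.05 over 16504 rows), tested on simulated data. Normalised CPM are counts over TMM-scaled library size. The floor is 3 counts. The deposited interval lists of HCT116 lamina domains give start and end positions, 1 list per stage. K562 samples, whose labels conflict, were not analysed here. DESeq2 1.42.0 served as an alternative. Named genes were the 10 members, their hosts and, per list and contrast, up to 4 called genes of smallest adjusted p. COIL, SMN1, SMN2, MALAT1, NEAT1, GAPDH, NOP58 and RPAP3 are outside that rule and were named after their values were seen. LMNB1 is also outside it, and the 5 tested spliceosomal RNA rows were named whether called or not. The members and lists were chosen with earlier results of these data known.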

Additional observations from a re-analysis of the deposited data

How the results depend on the processing

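The 6 comparisons were refitted with DESeq2 size factors, total counts, upper-quartile factors, no filter, the Wald test of DESeq2, only the 4 libraries compared, a replicate block, and without each library. The labels do not say that a replicate number marks a shared culture or day, so the numbers were not taken to pair the libraries. The correlation of same-numbered deviations ran from -0.067 to 0.32 and exceeded 0.1 in 3 of 6 pairs of groups. It was highest for native with PFA lamina (0.32) and for nuclear with cytosolic (0.28), and whether these were prepared in pairs is not known. With the replicate block 8 members were called higher in nuclear against cytosolic, where 27.6% of all rows were. In native against nuclear 3 were lower, where 5.36% were. In native against cytosolic 3 were higher and 1 lower, where 9.17% and 9.06% were. In PFA against nuclear 5 were lower, where 10.1% were, and 0 were called in the others. With the block SCARNA10 turned to -0.048 (PFA against cytosolic) and SCARNA2 to -0.022 (PFA against native). Nuclear against cytosolic gave 9 called with upper-quartile factors, without a filter and with only the 4 libraries, SCARNA13 being the one added. Of all rows, 31.8%, 20.6% and 30.6% were higher in these fits. Native against nuclear gave 4 lower without a filter, 4 by the Wald test and 5 with only the 4 libraries. Of all rows, 6.21%, 4.68% and 14.6% were lower in these fits. Native against cytosolic gave 6 higher without a filter, where 7.83% of all rows were, and 6 with only the 4 libraries, where 12.3% were. With total counts it gave 0 lower, where 3.52% of all rows were lower. PFA against nuclear gave 3 with total counts, where 3.1% of all rows were lower, and 2 with only the 4 libraries, where 1.54% were. PFA against cytosolic gave 1 higher without a filter and 1 by the Wald test, where 4.18% and 3.34% of all rows were higher. PFA against native gave 1 lower in both of these fits, where 0.63% and 1.1% of all rows were lower. Leaving out 1 library gave 5 to 7 (nuclear against cytosolic, higher), 0 to 0 (native against nuclear, lower), 0 to 1 higher and 0 to 0 lower (native against cytosolic), 1 to 9 (PFA against nuclear, lower), 0 to 3 (PFA against cytosolic, higher) and 0 to 5 (PFA against native, lower). A group left with 1 library is assumed to vary like the others.

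Signs turned for these members. In native against nuclear, SCARNA7 was 0.22 and SCARNA13 0.18 with total counts, SCARNA7 was 0.0031 with only the 4 libraries, and over single libraries left out SCARNA7 ran from -0.28 to 0.19 and SCARNA13 from -0.41 to 0.26, with 0.00065 without native replicate 2. In nuclear against cytosolic, SCARNA23 ran from -0.64 to 1.01. In PFA against nuclear, SCARNA2 ran from -1.53 to 0.13. In PFA against cytosolic, SCARNA17 was -0.0019 with DESeq2 size factors and -0.0014 by the Wald test. Leaving out single libraries there gave SCARNA5 from -0.62 to 1.37, SCARNA6 from -0.64 to 0.93, SCARNA7 from -0.44 to 0.55, SCARNA10 from -0.97 to 0.64, SCARNA12 from -0.35 to 1.23, SCARNA13 from -0.67 to 0.59 and SCARNA17 from -0.28 to 0.28. In PFA against native, SCARNA2 ran from -0.94 to 0.70 and SCARNA12 from -1.28 to 0.34. The causes were not tested. Depth limits SCARNA23, at 2 to 34 counts.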

Other observations

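The tables hold 18 further SCARNA rows, of which 13 passed the filter on low counts. Between the fractions 3 of the 13 (23.1%) were higher in the nuclear one and 1 (7.69%) was lower, with a median log2 fold change of 0.98 beside 0.13 for all rows. The share higher was near the 26.1% of all rows, and 21.2% of all rows were lower. SCARNA9L, on chromosome X, had 64.4 and 62.5 normalised CPM in the nuclear and 10.4 and 5.07 in the cytosolic libraries, and a log2 fold change of 3.0 (SE 0.40, adjusted p 5.80e-04). SCARNA21 had 1.65 (adjusted p 0.0041) and SCARNA15 2.34 (adjusted p 0.0441). SCARNA16 went the other way, with 43.1 and 47.8 in the nuclear and 162 and 205 in the cytosolic libraries, and -2.01 (SE 0.71, adjusted p 0.0329). Of its 187 bases, 77 are shared with the row of the microRNA MIR6516, and SCARNA15 shares bases with an exon of FSD2, so counts for these loci cannot be assigned to one RNA.

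SCARNA16 also differed between replicates at the lamina, with 282 and 35.3 normalised CPM at the PFA lamina and 138 and 37.7 at the native lamina in replicates 1 and 2. At the native lamina 12 of the 13 SCARNA rows under 200 bases, SCARNA23 included, were higher in replicate 1, with summed levels of 238 and 87.2, or 100.4 and 49.5 without SCARNA16. The 9 Cajal body RNAs of 250 bases or more had summed levels of 1073 and 1028 there. Of all tested rows with counts in both native lamina replicates, 48.5% were higher in replicate 2. Of 107 box H/ACA small nucleolar RNA rows 78 were higher in replicate 1 (summed levels 1125 and 511), and of 128 box C/D rows 45 were (summed levels 690 and 688). The difference between these classes was not tested. Against the nuclear fraction SCARNA9L and SCARNA28 were lower at the native lamina (log2 fold change -2.20 and -1.59), and SCARNA9L, SCARNA15 and SCARNA21 at the PFA lamina (-2.65, -4.67 and -1.65), shares of 15.4% and 23.1% of the 13 beside 3.44% and 7.81% of all rows. Without PFA lamina replicate 1 these 3 had -2.89, -3.27 and -1.23, and SCARNA15 and SCARNA21 were not called. SCARNA15 had 0 and 1 counts in PFA lamina replicates 1 and 2, both under the floor of 3 counts, so neither of its values is exact.

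In the domain lists of HCT116, a colorectal carcinoma line and not the line of the RNA libraries, 0 of the 10 Cajal body RNAs lay inside a lamina-associated domain in G1, S or G2 (hg19). Of 27264 rows on 1 chromosome, 6.73% lay wholly inside one in G1, 5.92% in S and 8.26% in G2. The nearest was SCARNA13, 200.035 kb from a domain in G2 and 2000.035 kb in G1 and S. SCARNA23 was 537.3 kb away in G1 and S and 737.3 kb in G2, and SCARNA9 754.7 kb in all 3 stages.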
